A study of Mus musculus with 24 samples.

Results

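A set of 10 mouse genes of the heat shock protein and chaperonin families was followed through the series: Hspa8, Hsph1, Dnaja1, Dnajb1, Hsp90aa1, Hsp90ab1, Chordc1, Hspd1, Hspe1 and Hspb1. They were taken by symbol, and all 10 of 10 were found among the 24421 genes of both RNA-seq count tables. Of the 10, Hspd1 and Hspe1 encode the mitochondrial chaperonin and its lid, so the set is not wholly cytosolic. The series studied how knockdown of Fto, the enzyme that removes the m6A mark from RNA, acts on B16-OVA cells and on the T cells that meet them. B16-OVA is a C57BL/6 melanoma line that carries ovalbumin, grown here in puromycin. The tumour groups were cells with a hairpin against Fto (shFto) and cells with a control hairpin (shNC), with 3 RNA-seq and 3 ATAC-seq libraries each. The labels of these tumour samples do not say which shFto line was used, and all the tumour cells, controls included, carry a hairpin and ovalbumin. The T cell groups were naive CD8+ T cells of C57BL/6 OT-I mice, whose receptor recognises an ovalbumin peptide. They were kept for 8 h with shFto-1, shFto-2 or shNC tumour cells in medium with IL-2 and then recovered by cell sorting, with 2 RNA-seq libraries per group. No group of T cells without tumour cells was analysed here. For m6A-seq there was 1 antibody library each of shFto cells in DMSO, of shNC cells given 5 µM Dac51 for 48 h, and of shNC cells in DMSO. Dac51 is known here by its code name only. Whether replicate libraries stem from different cultures or mice is not stated in the labels, so each p-value measures the spread among these libraries, which may be technical.

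Chaperones hold newly made or unfolded proteins and let them fold. Members of the HSP70 family take short stretches of a client, with J-proteins that bring the client and speed ATP use and with HSP110 proteins that exchange the nucleotide. HSP90 receives partly folded kinases and receptors from HSP70, and chaperonins enclose a client in a ring. In resting cells the transcription factor HSF1 is held back, and when unfolded proteins accumulate it binds repeats of the letters GAA and TTC, the heat shock element, in front of chaperone genes. T cells that are activated by antigen grow, make much protein and are known to raise several chaperones.

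Total counts were 11152404 to 19665589 in the 3 shFto and 13413981 to 17406625 in the 3 shNC tumour libraries. In T cells they were 5166653 and 13066355 beside shFto-1 cells, 6549224 and 9294666 beside shFto-2 cells, and 2628158 and 6567685 beside shNC cells. Fto was 28.3 to 33.5 CPM (counts scaled to a common library size after TMM) in shFto and 91.8 to 108 CPM in shNC tumour cells. Melanocyte markers were detected in every T cell library. The sum of the 11 was 1716 to 1988 CPM beside shFto-1 and shFto-2 cells and 1343 and 1725 CPM beside shNC cells, with 1 of the 11, Oca2, at 0 in 1 shNC library. In tumour libraries the same sum was 23419 to 24300 CPM in shFto and 18400 to 19407 CPM in shNC cells. The sum of 10 T cell markers in the T cell libraries was 3294 to 3891 CPM beside shFto-1 and shFto-2 cells and 4264 and 4389 CPM beside shNC cells. In the tumour libraries 8 or 9 of these 10 had no counts, Cd3d, Cd3e, Cd3g and Cd8a among them, and nearly all of the rest was Lck. Of 6 fibroblast and endothelial markers, the sum in T cell libraries was 34.9 to 73.2 CPM beside shFto-1 and shFto-2 cells and 125 and 157 CPM beside shNC cells, mostly Pecam1. Pecam1 averaged 70.4 CPM beside shFto-1, 38.7 CPM beside shFto-2 and 127 CPM beside shNC cells. None of the other markers averaged above 6.98 CPM in a T cell group (Pdgfrb beside shNC cells). Whether Pecam1 came from the T cells themselves or from other cells was not tested. Markers of B cells and of myeloid cells summed to at most 4.33 and 11.3 CPM in any T cell library.

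The promoters come first because they show the letters that HSF1 is known to bind. The genes lie on several chromosomes of GRCm38 (mm10): Hspd1 spans chr1:55077833-55088243 and Hspe1 chr1:55088148-55091317, head to head, with 96 shared bases on opposite strands. Hspa8 spans chr9:40801276-40805202, Chordc1 chr9:18292267-18314000, Hsph1 chr5:149616843-149636498 and Hspb1 chr5:135887919-135889563. Hsp90aa1 spans chr12:110691036-110696395, Hsp90ab1 chr17:45567778-45573261, Dnaja1 chr4:40722468-40734965 and Dnajb1 chr8:83608175-83612653. RefSeq windows of 250 bases before to 50 after a gene's start were at hand for 7 of the 10, all but Hspa8, Hsp90aa1 and Hsp90ab1. A motif of 3 alternating units was searched, GAANNTTCNNGAA or TTCNNGAANNTTC, which are the reverse complements of each other and so cover both strands. It stood in at least 1 window of Hspd1, Hspe1, Hsph1 and Chordc1, 4 of 7. Counted in the same way, 0.57% of 8949 genes tested in tumour cells that had a window held it. By single windows it stood in 0.603% of all 32851 mouse windows. Hspd1 and Hspe1 share 1 site, 72 to 89 bases before the start of Hspe1. Hspd1 had 2 windows, and the one at its outermost start, chr1:55088243, held no match. The site stood in the window of its other start, which lies inside the gene, and began 144 bases before that start. It thus lies within the span of Hspd1 given above. The shorter motif of 2 units, GAANNTTC or TTCNNGAA, which is contained in the longer one, stood in 6 of 7, Dnajb1 being the exception. It was held by 13.6% of the 8949 genes and stood in 15.1% of all windows. A match is a run of letters and not a measured binding site. The 4 windows below, written 5′ to 3′ on the strand of the gene from 250 bases before the start to 30 bases from the start on, were chosen to show the 3-unit sites of each kind and the 2-unit sites of Hspb1, with the motif letters in capitals.
Hspe1, chr1:55087898-55088177, plus strand: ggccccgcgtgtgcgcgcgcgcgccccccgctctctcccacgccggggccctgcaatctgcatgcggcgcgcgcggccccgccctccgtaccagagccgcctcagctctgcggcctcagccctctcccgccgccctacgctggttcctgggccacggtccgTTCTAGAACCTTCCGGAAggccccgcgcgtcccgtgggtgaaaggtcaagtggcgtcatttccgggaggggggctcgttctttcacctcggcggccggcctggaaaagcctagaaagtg
Hsph1, chr5:149636286-149636565, minus strand: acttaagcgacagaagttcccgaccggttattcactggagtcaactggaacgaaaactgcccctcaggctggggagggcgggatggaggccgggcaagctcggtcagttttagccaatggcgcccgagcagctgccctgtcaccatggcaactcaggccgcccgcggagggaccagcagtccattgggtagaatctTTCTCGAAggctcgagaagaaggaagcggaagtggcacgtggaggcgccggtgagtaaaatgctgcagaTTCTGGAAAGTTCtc
Chordc1, chr9:18292017-18292296, plus strand: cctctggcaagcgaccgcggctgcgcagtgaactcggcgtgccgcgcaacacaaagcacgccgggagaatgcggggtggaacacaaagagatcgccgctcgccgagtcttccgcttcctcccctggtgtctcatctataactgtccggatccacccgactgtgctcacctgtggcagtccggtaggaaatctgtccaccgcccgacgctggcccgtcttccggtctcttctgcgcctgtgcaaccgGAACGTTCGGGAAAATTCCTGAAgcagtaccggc
Hspb1, chr5:135887669-135887948, plus strand: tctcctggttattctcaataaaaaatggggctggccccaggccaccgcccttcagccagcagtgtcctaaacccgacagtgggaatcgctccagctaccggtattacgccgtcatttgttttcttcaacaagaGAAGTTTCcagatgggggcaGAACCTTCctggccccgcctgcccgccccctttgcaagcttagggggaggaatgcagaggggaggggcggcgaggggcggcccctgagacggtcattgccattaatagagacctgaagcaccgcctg

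In Hspe1 the capitals form a single block of 4 alternating units upstream of the start, and in Chordc1 a longer block runs across the start itself. In Hsph1 the 3-unit block lies 15 to 27 bases into the transcript of the start used here, with a 2-unit match upstream. That start and the 2-unit match both lie within the span of Hsph1 given above. In Hspb1 there are 2 separate 2-unit matches, at 117 and 97 bases before the start.

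The promoters of all 10 genes were open chromatin in all 6 tumour ATAC-seq libraries. ATAC-seq marks places where a transposase can reach the DNA. A peak overlapped the window of 1 kb each side of the start of each gene in 3 of 3 shFto and 3 of 3 shNC libraries. Of 11164 expressed genes that could be placed, 91.4% had such a peak in all 6 libraries, so a peak at these promoters is the usual state of an expressed gene. None of the 10 had a peak in the 3 libraries of only 1 group, against 0.00896% of all genes in shFto libraries only and 0.116% in shNC libraries only. The peaks' fold enrichments are the authors' values, given within each list and not tested between lists. The lists held 67427 to 72055 peaks in shFto and 74551 to 81944 in shNC libraries. The peak at Dnajb1 stood 22.6- to 24.0-fold over background in shFto lists and 22.4- to 23.5-fold in shNC lists. At Hspb1 the values were 11.9- to 13.7-fold in shFto lists and 13.9- to 14.7-fold in shNC lists, and at Hsp90aa1 11.6- to 12.9-fold in shFto and 13.3- to 15.6-fold in shNC lists. At Hsph1 they were 17.6- to 18.2-fold in shFto and 16.6- to 17.5-fold in shNC lists. For Hspa8 they were 11.6- to 13.4-fold in shFto and 12.9- to 13.5-fold in shNC lists. In the same order, Chordc1 had 17.2- to 17.6-fold and 16.5- to 18.2-fold, and Dnaja1 15.4- to 18.3-fold and 15.3- to 16.2-fold. Hspd1 and Hspe1 had 16.7- to 18.1-fold and 17.3- to 18.75-fold. A single peak, 947 to 984 bp wide in shFto lists and 996 to 1015 bp in shNC lists, covered the shared start region of Hspd1 and Hspe1. The lowest were at Hsp90ab1, at 7.21- to 9.31-fold in shFto and 8.00- to 8.65-fold in shNC lists. Its strand was not in the tables used, so both gene ends were searched, and peaks lay at the end at position 45573261 only.

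In T cells, 8 of the 10 transcripts rose beside Fto-knockdown tumour cells, and none fell. Against T cells kept with shNC tumour cells, and over the mean of shFto-1 and shFto-2, Hspd1 rose 2.15-fold, Hspe1 2.1-fold, Hsph1 1.92-fold, Hsp90ab1 1.86-fold, Hsp90aa1 1.83-fold, Hspa8 1.66-fold and Chordc1 1.5-fold. Hspb1, the least counted of the 10, was also called. The J-protein genes Dnaja1 and Dnajb1 were not called. Of all 12824 genes tested, 20.3% were called higher and 12.7% lower by edgeR's quasi-likelihood test at an adjusted p under 0.05. Higher calls made up 61.5% of all calls, and 42.8% when libraries were scaled by their totals, which moved the median log2 difference of all genes to -0.18. The median log2 fold change of the 10 was 0.89, beside -0.01 over all genes tested. Together the 10 took 1.65% and 1.79% of counts in T cells beside shFto-1 cells, 2.03% and 2.23% beside shFto-2 cells, and 1.17% and 1.25% beside shNC cells. In the same contrast 3 of 11 melanocyte markers were called higher and 0 lower, 1 of 10 T cell markers higher and 7 lower, and 1 of 4 tested fibroblast and endothelial markers lower, and their part in these values was not tested.

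**Figure D1:**
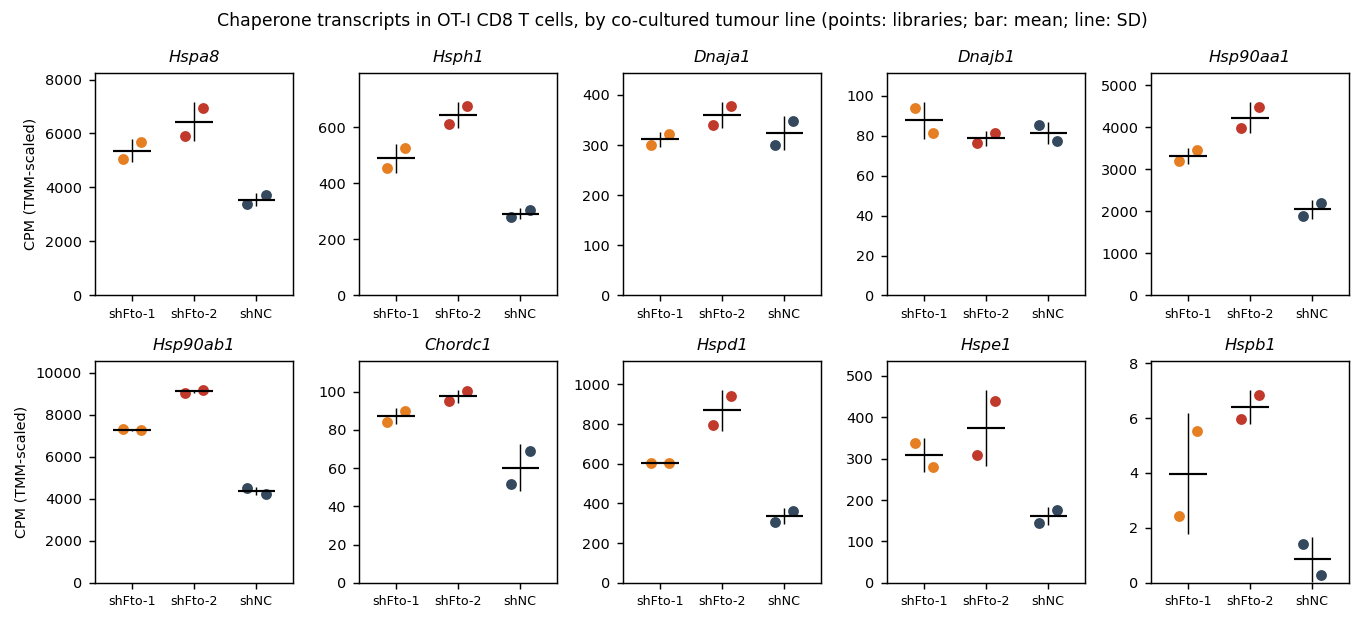
Level of the 10 transcripts in OT-I CD8 T cells (CPM, TMM-scaled, linear axes from 0), by the tumour line they were kept with. Points are libraries, horizontal bars group means and vertical lines SD (n = 2 per group). For all genes but Dnaja1 and Dnajb1 every shFto-1 and shFto-2 library lies above both shNC libraries.

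Hspa8 encodes HSC70, the constitutive cytosolic HSP70. It had 5066 and 5672 CPM in T cells beside shFto-1 cells, 5924 and 6947 CPM beside shFto-2 cells, and 3388 and 3713 CPM beside shNC cells. The groups did not overlap, and shFto-2 lay above shFto-1. The log2 difference of the mean of the lines from shNC was 0.73 (SE 0.0866, edgeR adjusted p = 0.000181). Hsph1 encodes HSP110, which exchanges the nucleotide of HSP70. It had 454 and 527 CPM beside shFto-1 cells, 612 and 677 CPM beside shFto-2 cells, and 279 and 305 CPM beside shNC cells, again with no overlap between any of the groups. Its log2 difference was 0.94 (SE 0.0974, edgeR adjusted p = 8.78e-05).

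Neither J-protein among the 10, Dnaja1 or Dnajb1, was called. Dnaja1, which encodes a type I J-protein, had 300.3 and 322 CPM beside shFto-1 cells, 341 and 378 CPM beside shFto-2 cells, and 299 and 348 CPM beside shNC cells. Dnajb1 encodes HSP40, the J-protein known to rise on heat shock and to return HSF1 to rest. It had 94.1 and 81.1 CPM beside shFto-1 cells, 76.1 and 81.1 CPM beside shFto-2 cells, and 85.4 and 77.3 CPM beside shNC cells. The groups overlapped for both genes. Over all 10 genes, 8 lay higher without overlap beside both lines, where 28.2% of all genes did. The log2 differences of the mean of the lines from shNC, 0.04 for each, were -0.02 for each with DESeq2 size factors and -0.13 for each with library totals. The 95% interval of the log2 difference ran from -0.17 to 0.25 for Dnaja1 (edgeR adjusted p = 0.775) and from -0.20 to 0.28 for Dnajb1 (edgeR adjusted p = 0.811), which leaves out changes of the size seen for Hspa8.

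Of the HSP90 genes, Hsp90aa1 is the stress-responsive cytosolic form and Hsp90ab1 the constitutive one. Hsp90aa1 had 3190 and 3447 CPM in T cells beside shFto-1 cells, 3973 and 4488 CPM beside shFto-2 cells, and 1885 and 2204 CPM beside shNC cells. Hsp90ab1 had 7320 and 7257 CPM beside shFto-1 cells, 9057 and 9180 CPM beside shFto-2 cells, and 4518 and 4236 CPM beside shNC cells. For both genes the 3 groups were apart, in the order shFto-2, shFto-1, shNC. The log2 differences were 0.87 for Hsp90aa1 (SE 0.0891) and 0.90 for Hsp90ab1 (SE 0.0606), with edgeR adjusted p = 8.26e-05 and 2.84e-05. Chordc1 encodes CHP-1, a zinc-binding partner of HSP90. It had 84.2 and 90.0 CPM beside shFto-1 cells, 95.2 and 100.1 CPM beside shFto-2 cells, and 51.4 and 68.9 CPM beside shNC cells, a log2 difference of 0.58 (SE 0.126, edgeR adjusted p = 0.00543).

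The mitochondrial chaperonin pair rose most among the well-counted genes. Hspd1, the HSP60 ring subunit, had 604 and 602 CPM beside shFto-1 cells, 796 and 943 CPM beside shFto-2 cells, and 308 and 363 CPM beside shNC cells. Its 3 groups did not overlap, and the log2 difference was 1.10 (SE 0.104, edgeR adjusted p = 5.81e-05). Hspe1, the HSP10 lid, had 338 and 280 CPM beside shFto-1 cells, 310 and 440 CPM beside shFto-2 cells, and 145 and 176 CPM beside shNC cells. Both lines lay above shNC but overlapped each other, and the log2 difference was 1.07 (SE 0.156, edgeR adjusted p = 0.000555). The genes overlap on opposite strands and the strand setting of the counting is not given in the sources used here, so reads of the shared 96 bases cannot be assigned. RefSeq names 5 pseudogenes of Hspd1, 6 of Hspe1 and 1 of Dnaja1, whose reads the counting could have split from their parents.

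Hspb1 encodes HSP27, a small heat shock protein that binds unfolding clients without ATP. It was barely present in T cells, with 2.43 and 5.53 CPM beside shFto-1 cells, 5.96 and 6.86 CPM beside shFto-2 cells, and 1.43 and 0.28 CPM beside shNC cells. These are 30 and 28 reads, 53 and 43 reads, and 4 and 2 reads in the same order. The values did not overlap, and the log2 difference was 2.75 (SE 0.896, edgeR adjusted p = 0.0392). Without the second shNC library it was 1.83 with an edgeR adjusted p of 0.18, and the call was also lost without either shFto-2 library or the second shFto-1 library (edgeR adjusted p = 0.0645 to 0.116). The T cell level was 10.4% of the shFto tumour level beside shFto-1 cells, 16.7% of it beside shFto-2 cells, and 3.91% of the shNC tumour level beside shNC cells. For the summed melanocyte markers these shares were 7.92%, 7.63% and 8.18%. Single markers varied, from 3.99% (Trpm1) to 14.3% (Mlana) beside shFto-1 and from 2.64% (Trpm1) to 11.5% (Mitf) beside shFto-2 cells. Beside shNC cells they ran from 1.40% (Pmel) to 29.9% (Oca2). Pmel had 4.83% beside shFto-1 and 5.00% beside shFto-2 cells, and Oca2 had 8.31% and 4.73%. The part of carried-over tumour RNA in the Hspb1 result was not tested.

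Each line was also set against shNC apart, with the same shNC libraries in both. Beside shFto-1 cells 7 of the 10 rose, all of the above but Hspb1 (log2 difference 2.40, edgeR adjusted p = 0.108), where 15.4% of all genes were called higher (69.3% of all calls, and 45.7% with library totals). Beside shFto-2 cells all 8 rose, where 20.4% of all genes were called higher (60.5% of all calls, and 44.8% with library totals). The call of Hspb1 there was lost without either shFto-2 library or the second shNC library (edgeR adjusted p = 0.115 to 0.142). The log2 differences of Hspa8, Hsp90aa1, Hsp90ab1, Hsph1, Hspd1 and Hspe1 ran from 0.60 to 0.93 beside shFto-1 cells and from 0.86 to 1.37 beside shFto-2 cells. Chordc1 differed by 0.50 beside shFto-1 cells and by 0.67 beside shFto-2 cells. Its call beside shFto-1 cells (edgeR adjusted p = 0.0314) was lost with DESeq2 size factors (0.054), with library totals (0.154), and without either shFto-1 library or the first shNC library (0.0836 to 0.165).

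The lines were then set against each other. Compared directly, the log2 difference of shFto-2 from shFto-1 was above 0 for 9 of 10 genes, as for 6148 of all 12824 genes tested. For 8 of the 9 the groups did not overlap, where 23.5% of all genes lay higher without overlap. Those of Hspe1 overlapped, and its difference was -0.0084 without the second shFto-2 library. Only Hspd1 and Hsp90ab1 passed edgeR's test, where 0.491% of all genes were called higher. The log2 difference of shFto-2 from shFto-1 was 0.53 for Hspd1 (SE 0.112, adjusted p = 0.0499) and 0.32 for Hsp90ab1 (SE 0.0672, adjusted p = 0.0476). Both values are close to the threshold, and both calls were lost with DESeq2 size factors and with library totals (edgeR adjusted p = 0.0507 to 0.057). Without the first or the second shFto-1 library, or the second shFto-2 library, 0 of the 10 were called, and without the first shFto-2 library 1 was. Melanocyte marker sums of the lines overlapped, at 1988 and 1810 CPM beside shFto-1 cells and 1716 and 1942 CPM beside shFto-2 cells. T cell markers summed to 3849 and 3891 CPM beside shFto-1 cells and to 3471 and 3294 CPM beside shFto-2 cells, and their part in the difference was not tested.

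Other chaperone genes were read from lists chosen by family, beside the 20.3% of all genes called higher and the 12.7% called lower in T cells. All 8 subunits of TRiC, the cytosolic chaperonin that folds actin and tubulin, rose in T cells beside shFto-1 and shFto-2 cells, with a median log2 difference of 0.90. Cct3 averaged 424 ± 12.5 CPM beside shFto-1 cells, 533 ± 30.2 CPM beside shFto-2 cells and 221 ± 8.43 CPM beside shNC cells (SD, n = 2 each). Of 15 HSP90 co-chaperones 10 rose, among them Fkbp4, Nudc and Cacybp with log2 differences of 1.01, 1.21 and 0.99. Of 9 partners of HSP70 that exchange nucleotide or hold clients 7 rose, among them Bag2 (1.34), Hspbp1 (1.03) and St13 (0.99). Of 10 other mitochondrial chaperones and proteases 6 rose, among them Hspa9 (0.88), the mitochondrial HSP70, and Grpel1 (0.89), its exchange factor. None of the genes in these families was called lower, and with library totals 1 HSP90 co-chaperone was.

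In the remaining families smaller shares were called higher, some of them near that of all genes. Of 6 prefoldin subunits, which hand actin and tubulin chains to TRiC, 3 rose (Pfdn4 1.35, Pfdn6 1.07 and Pfdn2 0.97 on the log2 scale). Of 11 other cytosolic J-proteins 4 rose, with a median of -0.02, and Dnajc2 among them at 0.75. With library totals 1 of the 11 was called higher and 2 lower. Of 8 other HSP70 and HSP110 genes tested, Hspa4 (0.86) and Hspa14 (0.47) rose, the call of Hspa14 being lost with library totals or without the first shNC library (edgeR adjusted p up to 0.0589). Hspa1a and Hspa1b, the heat-inducible HSP70 genes, are near-identical copies and are named here after their values were seen. Hspa1b had 3.48 and 5.53 CPM beside shFto-1 cells, 4.5 and 4.78 CPM beside shFto-2 cells, and 7.14 and 4.33 CPM beside shNC cells (edgeR adjusted p = 0.692), so the groups overlapped. Of the heat shock factors Hsf1 rose (0.55, SE 0.117, edgeR adjusted p = 0.00508, and 0.0567 without the second shNC library), while Hsf2 (0.27) and Hsf4 (0.55) were not called. None of 6 other small heat shock proteins tested was called by edgeR, and their median log2 difference was -0.71. The lowest was Hspb7 (-4.51, edgeR adjusted p = 0.0987), with 0 reads beside shFto-1, 6 beside shFto-2 and 18 beside shNC cells.

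**Figure D2:**
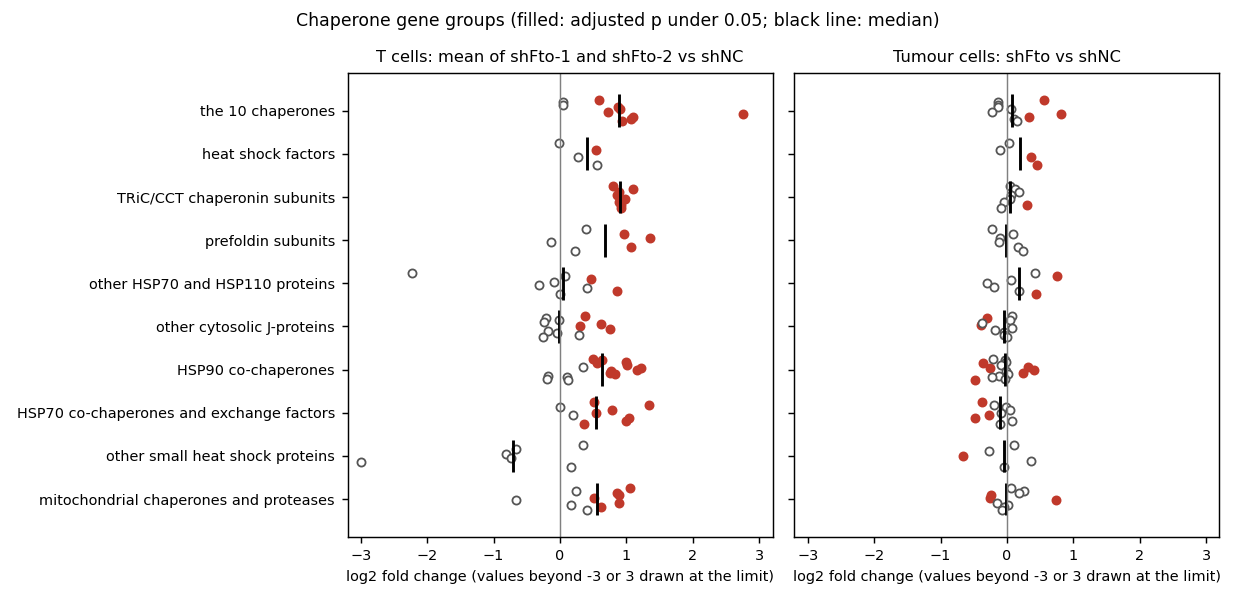
Log2 fold change of single genes (points) by chaperone family, in T cells (mean of shFto-1 and shFto-2 against shNC, left) and tumour cells (shFto against shNC, right); filled points passed an edgeR adjusted p under 0.05 and black lines are medians. In T cells all 8 TRiC subunits lie above 0 and are filled, and in tumour cells 1 of 8 is filled. Hspb7 in T cells, at -4.51, is drawn at the axis limit.

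In tumour cells, 3 of the 10 transcripts rose on Fto knockdown and none fell. Hspb1 was 1.76-fold, Chordc1 1.47-fold and Hspd1 1.26-fold the shNC level. The other 7, including the abundant Hspa8 and HSP90 transcripts, were not called. Of all 11718 genes tested by edgeR, 15.9% were called higher and 16.9% lower, so 3 of 10 is a share near that of all genes called in either direction, 32.8%. Higher calls made up 48.5% of all calls, and 60.0% with library totals. The median log2 difference was 0.08 for the 10 and -0.00 for all genes. The 10 took 1.29% to 1.45% of counts in shFto libraries and 1.31% to 1.38% in shNC libraries.

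**Figure D3:**
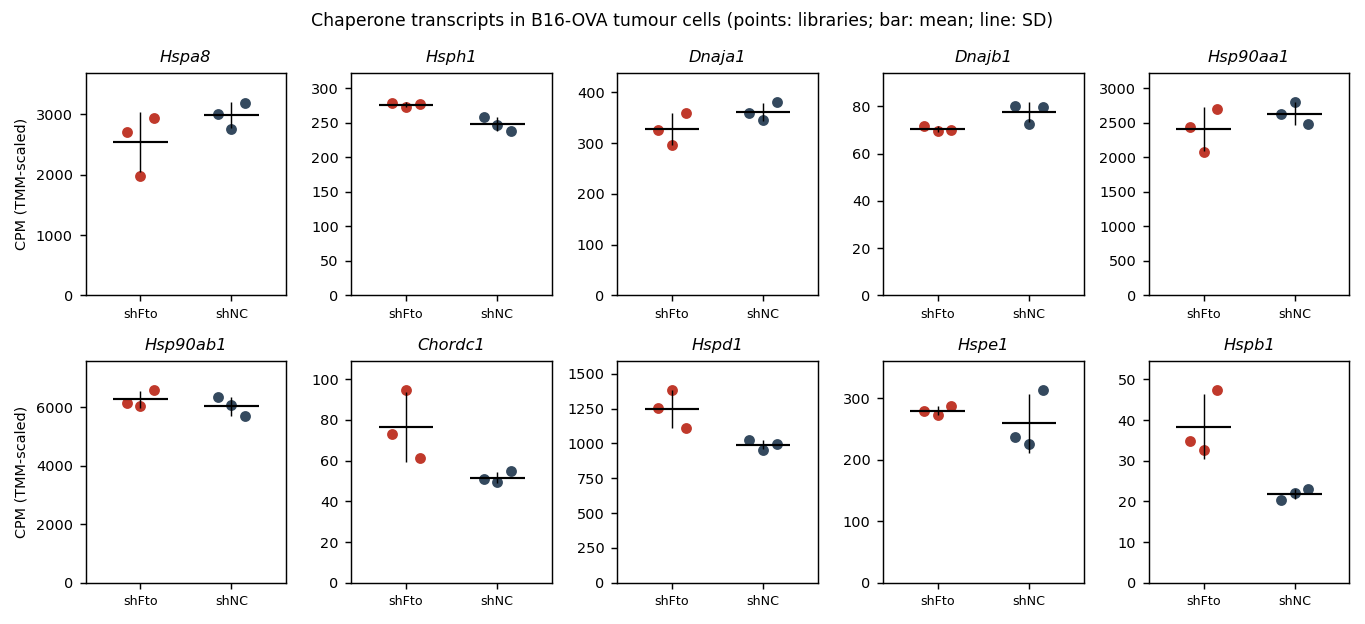
Level of the 10 transcripts in B16-OVA tumour cells with shFto or shNC (CPM, TMM-scaled, linear axes from 0). Points are libraries, horizontal bars group means and vertical lines SD (n = 3 per group). Hspb1, Chordc1, Hspd1 and Hsph1 are higher in all 3 shFto libraries, and Dnajb1 is lower in all 3.

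Hspb1 had 34.9, 32.7 and 47.5 CPM in shFto cells, against 20.4, 22 and 23.0 CPM in shNC cells. Every shFto library lay above every shNC library, and the log2 difference was 0.82 (SE 0.131, edgeR adjusted p = 0.000111). Chordc1 had 73.3, 95 and 61.4 CPM in shFto cells, against 50.9, 49.4 and 54.8 CPM in shNC cells, a log2 difference of 0.56 (SE 0.119, edgeR adjusted p = 0.00143). The spread was wider in shFto cells, but the groups did not overlap. Hspd1 had 1253, 1385 and 1110 CPM in shFto cells, against 1023, 954 and 997 CPM in shNC cells, a log2 difference of 0.33 (SE 0.0904, edgeR adjusted p = 0.00786). These 3 calls held in all 11 alternatives run for them.

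Among the rest, Hsph1 and Dnajb1 had groups that did not overlap but did not pass the test. Of the 10 genes 4 lay higher in shFto without overlap, where 22.5% of all genes did. Hsph1 had 279, 272 and 277 CPM in shFto cells, against 258, 247 and 238 CPM in shNC cells (log2 difference 0.16, edgeR adjusted p = 0.121). With library totals Hsph1 was called higher (log2 difference 0.21, edgeR adjusted p = 0.0397). Dnajb1 had 71.9, 69.5 and 70.0 CPM in shFto cells, against 80.2, 72.7 and 79.7 CPM in shNC cells (log2 difference -0.14, edgeR adjusted p = 0.217). Hspe1, whose promoter is shared with Hspd1, had 280, 273 and 288 CPM in shFto cells and 237, 227 and 314 CPM in shNC cells. The third shNC library was the highest of all 6, and without it Hspe1 was called higher (log2 difference 0.28, edgeR adjusted p = 0.0123).

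Hspa8 had 2698, 1984 and 2943 CPM in shFto cells, against 3011, 2757 and 3184 CPM in shNC cells. The second shFto library was the lowest of the 6, and the groups overlapped. The log2 difference was -0.23 (SE 0.115, edgeR adjusted p = 0.13). It was called lower without the third shFto library (-0.35, edgeR adjusted p = 0.0167), as was Dnaja1 (-0.21, edgeR adjusted p = 0.0497). Dnaja1 had 326, 297 and 360 CPM in shFto cells and 358, 345 and 381 CPM in shNC cells. Hsp90aa1 had 2446, 2078 and 2705 CPM in shFto cells and 2628, 2801 and 2478 CPM in shNC cells. Hsp90ab1 had 6146, 6055 and 6605 CPM in shFto cells and 6342, 6060 and 5700 CPM in shNC cells. The 95% interval of the log2 difference was -0.33 to 0.08 for Hsp90aa1 and -0.13 to 0.24 for Hsp90ab1. Melanocyte markers were called higher for 8 of 11 and lower for 0 in the same contrast, and fibroblast and endothelial markers lower for 3 of 4 tested, and their part in these values was not tested.

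In tumour cells the other chaperone families are read beside the 15.9% of all genes called higher and the 16.9% called lower. Of 8 TRiC subunits 1 rose, Cct8, by 0.31 on the log2 scale, and 0 of 6 prefoldin subunits were called by edgeR. The HSP90 co-chaperones were split, with 3 of 15 higher and 3 lower, such as Ppid (0.41), Fkbp5 (0.32) and Unc45a (-0.48). Of 9 partners of HSP70, Hspbp1 (-0.48), Bag1 (-0.37) and Bag6 (-0.27) fell. Of 10 other J-proteins tested, Dnajb6 (-0.39) and Dnajb2 (-0.31) fell. Hspa13, an HSP70-like protein of the microsomes, averaged 43.9 ± 4.39 CPM in shFto and 26.0 ± 1.46 CPM in shNC cells (SD, n = 3 each) and rose by 0.76, and Hspa4l, a relative of HSP110, rose by 0.44. Hspb2, a small heat shock protein, fell by 0.67 on the log2 scale. Hsf4 and Hsf2 rose by 0.46 and 0.37, and Hsf1 was not called (-0.10, edgeR adjusted p = 0.427). Of 10 mitochondrial chaperones and proteases Hscb rose (0.74), and Grpel2 (-0.26) and Grpel1 (-0.23) were called lower just inside the threshold. The Grpel2 call was lost in 10 of 11 alternatives, among them without any 1 of the 6 libraries (edgeR and DESeq2 adjusted p up to 0.186), and the Grpel1 call in 7 of 11 (up to 0.249), among them without the first or the third library of either group. The call of Dnajb2 was lost with library totals and without any 1 library but the second shNC one (edgeR adjusted p up to 0.163), and that of Bag6 with library totals and without the first or the second library of either group (up to 0.151). The call of Hsf2 was lost without the first or second shFto or the second or the third shNC library (edgeR adjusted p up to 0.159), and that of Hspa4l without the first or second shFto or the first shNC library (up to 0.075).

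The T cell and tumour effects were then compared in 1 fit of all 12 RNA-seq libraries. That fit used the same spread of a gene for both cell types. Its common biological coefficient of variation was 0.115, beside 0.199 in T cell libraries alone and 0.0906 in tumour libraries alone. The T cell spread may thus be understated and p-values of the difference too small. For Hspb1 the SE of the difference, 0.662, was below that of its T cell effect alone, 0.896. The T cell effect exceeded the tumour effect for 7 of the 10, where 15.8% of 15049 genes were called higher in this way (57.5% of all calls, 39.8% with library totals and 46.2% with DESeq2 size factors). The T cell minus tumour difference in log2 fold change was 0.97 for Hsp90aa1, 0.92 for Hspe1, 0.92 for Hspa8, 0.81 for Hsp90ab1, 0.75 for Hsph1 and 0.73 for Hspd1, with edgeR adjusted p of 1.65e-05 to 0.00249. For Hspb1 it was 2.08 (SE 0.662, edgeR adjusted p = 0.0273), and 0.89 with an edgeR adjusted p of 0.515 without the second shNC T cell library. Chordc1 rose in both cell types, and its difference was -0.01 with a 95% interval from -0.45 to 0.42. Dnaja1 and Dnajb1, called in neither cell type, differed by 0.15 and 0.14, with intervals from -0.13 to 0.42 and from -0.14 to 0.43. The T cell and tumour counts come from separate tables and the cells were handled differently, so cell type and handling cannot be told apart in this difference. In both sets of libraries, fewer cells of a type and less RNA per cell cannot be told apart either.

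**Figure D4:**
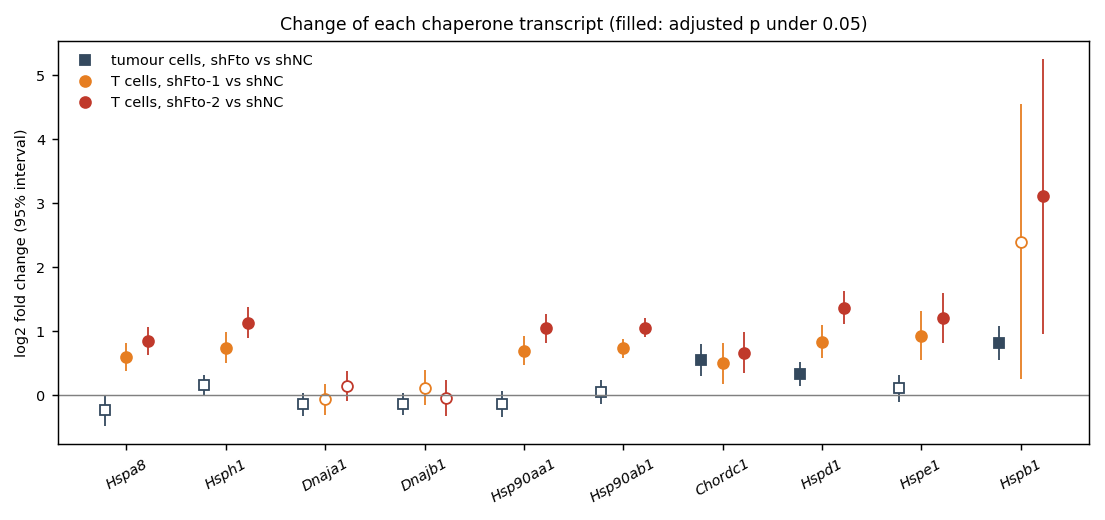
Log2 fold change of each transcript against shNC, with 95% intervals, in tumour cells (squares) and in T cells beside shFto-1 or shFto-2 cells (circles); filled symbols passed an edgeR adjusted p under 0.05. Hspa8, Hsph1, Hsp90aa1, Hsp90ab1 and Hspe1 are filled in both T cell contrasts and open in tumour cells, while Dnaja1 and Dnajb1 are open throughout.

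Of the 10 genes 7 had an m6A peak in at least 1 list. The lists give regions where RNA bound by the antibody exceeded input, with 10811 peaks in shFto, 9850 in Dac51-treated shNC and 8479 in shNC cells, 1 library each, so differences between lists have no replicate check. Of the 10 genes 3 had a peak in the shFto list, 3 in the Dac51 list and 6 in the shNC list, against 53.6%, 49.9% and 44.2% of the 11718 genes expressed in the tumour cells. Dnajb1 and Hsph1, 2 of the 10, were in all 3 lists, against 40.4% of all genes. Hsp90ab1, Hspe1 and Hspb1 were in none, as were 41.1% of all genes. All fold enrichments below are the authors' deposited values.

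**Figure D5:**
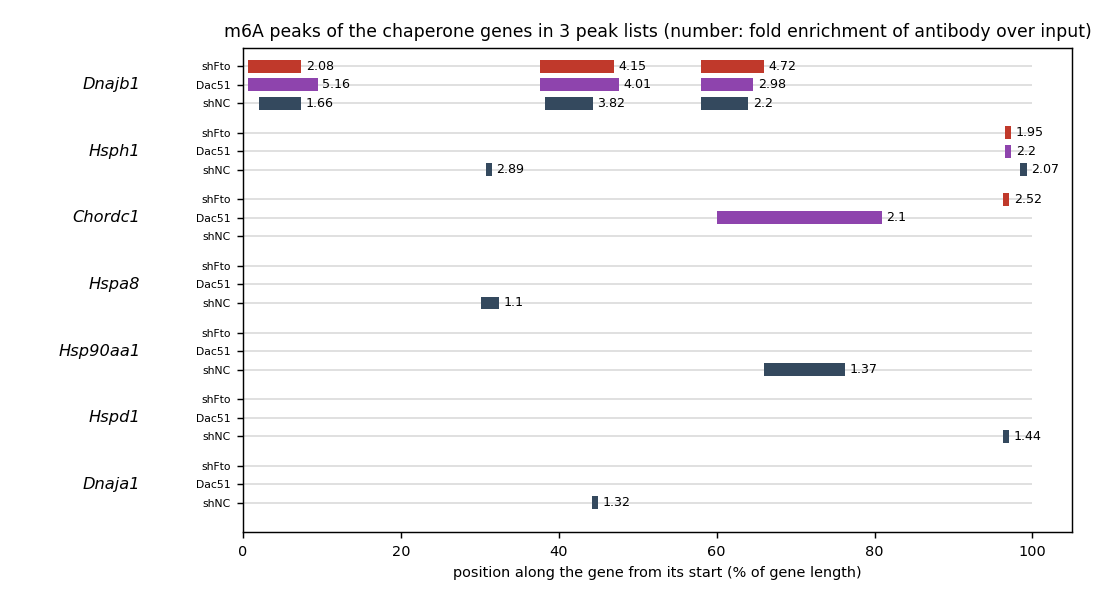
Position of m6A peaks along the 7 chaperone genes that had any (percent of gene length from the start) in the shFto, Dac51 and shNC lists, with the authors' fold enrichment of antibody over input beside each bar. Bars span a peak's whole extent, introns included, so the Dac51 peak of Chordc1, which has 3 blocks, looks wide. Dnajb1 has 3 peaks in every list, and Hspa8, Hsp90aa1, Hspd1 and Dnaja1 have a bar in the shNC list only.

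Dnajb1 carried 3 peaks in each list. The first, near the start of the transcript, stood 2.08-fold over input in shFto cells, 5.16-fold in Dac51-treated cells and 1.66-fold in shNC cells. The second stood 4.15-, 4.01- and 3.82-fold, and the third 4.72-, 2.98- and 2.20-fold, in the same order of lists. The shNC value was the lowest of the 3 at each peak, but no value has a replicate. The first peak is common to all lists over chr8:83608265-83608504. A RefSeq window (GRCm38.p6, plus strand) covers most of it. The stretch of 173 bases from the first atg inside both, at chr8:83608332, to the end of the common peak is shown because it holds the 5 letters GGACT, the best known context of m6A, starting at its base 9. GGACT is common, being present in 26.1% of all promoter windows on the strand of the gene, and this match does not show that its A is the marked base.
Dnajb1, chr8:83608332-83608504, plus strand: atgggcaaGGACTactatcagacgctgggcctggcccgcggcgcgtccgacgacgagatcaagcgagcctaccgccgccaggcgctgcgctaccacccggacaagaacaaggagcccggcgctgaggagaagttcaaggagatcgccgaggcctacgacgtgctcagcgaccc

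Hsph1 had a peak near its end in each list, of 1.95-fold in shFto, 2.20-fold in Dac51-treated and 2.07-fold in shNC cells. The shFto and Dac51 peaks overlapped each other and ended 542 and 601 bases before the gene's end, while the shNC peak ended 182 bases before it. A second shNC peak, of 2.89-fold, lay at 31.0% of the gene length. Chordc1, higher in shFto tumour cells, had a peak in the shFto list (2.52-fold, 745 bases before the gene's end). It had one elsewhere in the Dac51 list (2.1-fold) and none in the shNC list. Of all genes, 14.8% had a peak in the shFto list, the Dac51 list or both, and none in the shNC list. The share with both was not counted.

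Hspa8, Hsp90aa1, Hspd1 and Dnaja1 had a peak in the shNC list only. This pattern was held by 1.65% of all genes tested, and by 2.65% of the 1018 genes with a mean of at least 200 CPM. The peaks were weak, at 1.10-fold for Hspa8, 1.37-fold for Hsp90aa1, 1.44-fold for Hspd1 and 1.32-fold for Dnaja1, and all 4 lay in the lowest 2.03% of the shNC list by fold enrichment. With a fold enrichment of at least 2 required, none of the 4 was left. Of these genes only Hspd1 was called in tumour RNA.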

How the data were processed

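RNA-seq, ATAC-seq and m6A-seq were read from 24 samples. The RNA-seq tables hold whole-number counts per gene symbol, deposited with no normalization. Each ATAC-seq list has, per the file headers and the values, a fold enrichment, a -log10 p, a -log10 q and a score (10 times the -log10 q) per peak, made by the authors in each library apart. The m6A lists hold the authors' deposited p-value, log10 score of it and of its false discovery rate, and fold enrichment over input from exomePeak. The submitters' processing notes name MACS2 2.1.3, STAR 2.7.0f, Bowtie2 2.3.5, Picard, Trim Galore 0.6.0 and deepTools, with no role, and the build mm10. Per the labels' protocols, m6A libraries started from polyA RNA and a strand-keeping kit for total RNA was used. How genes were counted (tool, strand, annotation) and which thresholds peaks had to pass is not given in the sources used here.

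Counts were filtered with filterByExpr, scaled by TMM and tested with edgeR 4.0.16 (quasi-likelihood F test, Benjamini-Hochberg adjusted p under 0.05 over all genes) in R 4.3.3, in 1 fit for the tumour libraries, 1 for the T cell libraries and 1 for both. All 10 genes passed the filter in both tables. Fold changes are on the log2 scale. The tests were run on counts simulated with the spread of these libraries and with known changes, as many up as down. Such counts follow the model of the test, so they cannot check the scaling or the false calls in the real libraries. An ATAC peak counted with 1 bp or more in the window of 1 kb each side of a start. Gene starts came from the RefSeq promoter table (GRCm38.p6) for 8949 genes, from the m6A lists' strand for 1226, and from both gene ends for 989. DESeq2 1.42.0 and other scalings, filters and left-out libraries were alternatives. Python 3.11.15, pandas 2.3.3 and Matplotlib 3.10.9 were used for the rest. No pair of libraries of a group agreed within sampling noise (chi-square per gene 4.44 to 16.5).

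The 10 genes and the gene lists were chosen with earlier results of these data known. In each list the text names up to 3 genes, those with the smallest p in the tumour contrast and in the T cell mean contrast, plus those said to be chosen after their values were seen. Intervals cover the spread among libraries only.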

Additional observations from a re-analysis of the deposited data

Results flagged for a closer look

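In T cells, edgeR's test of the difference itself called Hsp90ab1 and Hspd1 between the tumour lines the cells were kept with, where 0.491% of all genes were called higher. The log2 difference of shFto-2 from shFto-1 was 0.32 for Hsp90ab1 and 0.53 for Hspd1, each with shFto-2 above shFto-1 in both libraries. The Hsp90ab1 call was lost in 7 of 11 alternatives and the Hspd1 call in 5 of 11, both with DESeq2 size factors and with library totals among them.

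In the fit over all RNA-seq libraries edgeR called a difference in effect between cell types for 7 of the 10 genes. Each effect was higher in T cells, where 15.8% of all genes were called higher. The fit used the same spread of a gene for both cell types, so the T cell spread may be understated. The T cell minus tumour difference in log2 fold change was 0.97 for Hsp90aa1, 0.92 for Hspe1, 0.92 for Hspa8, 0.81 for Hsp90ab1, 0.75 for Hsph1 and 0.73 for Hspd1. For Hspb1 it was 2.08, and 0.89 with an edgeR adjusted p of 0.515 without the second shNC T cell library.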

How the results depend on the processing

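Of the 10 genes, Hspb1, Chordc1 and Hspd1 in tumour cells, and Hspa8, Hsph1, Hsp90aa1, Hsp90ab1, Chordc1, Hspd1 and Hspe1 in T cells over the mean of the lines, kept their call in all 11 alternatives. Hspb1 in T cells kept it in 5 of 11, with log2 differences of 1.83 to 4.06 and adjusted p of 0.00642 to 0.18. The number of the 10 called higher for shFto-2 against shFto-1, 2, was 0 with DESeq2 size factors, 0 with library totals and 4 with DESeq2, where the counts over all genes were 518 higher and 543 lower against 63 and 182. With single libraries left out, the number higher was 3 to 4 in tumour cells (0 to 2 lower), 7 to 8 over the mean of the lines, 6 to 7 for shFto-1, 7 to 8 for shFto-2, 0 to 2 between the lines and 6 to 7 for T cells minus tumour. The cause was not tested. The correlation of deviations between same-numbered libraries was 0.0140, 0.0365 and -0.0170 in tumour cells. In T cells it was 0.368 between shFto-1 and shFto-2, -0.324 between shFto-1 and shNC and -0.206 between shFto-2 and shNC, each from 2 libraries a group, so the numbers are not taken as pairs. With the replicate number as a block, 3 of the 10 were higher and 1 lower in tumour cells (Hspa8 -0.25), 7 higher over the mean of the lines, 7 for shFto-1, 8 for shFto-2, 4 between the lines (with Hsp90aa1 and Hsph1 added) and 7 for T cells minus tumour. A pairing with the shNC numbers crossed, added after seeing the data, gave 8, 7, 8 and 2 in the 4 T cell comparisons. Several uncalled values turned sign. With DESeq2 size factors, library totals and DESeq2, Dnaja1 over the mean of the lines was -0.0213, -0.129 and -0.0237, and Dnajb1 -0.0231, -0.131 and -0.0207. With library totals Fto was -0.0831 there, Dnajb1 -0.0464 for shFto-1, Dnaja1 -0.0282 for shFto-2, and for T cells minus tumour Dnaja1 -0.0423 and Dnajb1 -0.0484, while Chordc1 was 0.0229 there with the replicate block. With single libraries left out, Dnaja1 ran from -0.0869 to 0.193 and Dnajb1 from -0.00224 to 0.0755 over the mean of the lines, Fto from -0.0872 to 0.363, Dnaja1 for shFto-1 from -0.184 to 0.0894, Hspe1 between the lines from -0.0084 to 0.483, and for T cells minus tumour Chordc1 from -0.25 to 0.27 and Dnaja1 from -0.0212 to 0.284. With a fold enrichment of at least 2, the m6A counts were 2 genes in the shNC list, 0 in it only and 1 in all 3 lists, and 1 in all 3 with as many peaks as the smallest list. The ATAC counts did not move in any alternative. The depth of the T cell libraries limits Hspb1, at 2 to 53 reads.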

Other observations

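Other genes whose RefSeq promoter window holds the motif of 3 alternating GAA and TTC units were also read, without the 10 chaperone genes. In T cells 16 of 58 such genes were called higher and 2 lower by edgeR over the mean of shFto-1 and shFto-2. The share higher was 27.6%, against 20.9% of 9700 genes with a window, of which 1221 were called lower. In tumour cells 4 of 47 were called higher and 12 lower. The share higher was 8.51%, against 16% of 8949 genes with a window, of which 1466 were called lower. Named after their values were seen, Slc29a1, a nucleoside transporter, had log2 differences of 1.26 in T cells and -0.34 in tumour cells, and Pus7, a pseudouridine synthase, of 1.12 and -0.38. Ahcy, which breaks down S-adenosylhomocysteine, had 0.73 in T cells and -0.65 in tumour cells, and Art3 had -1.26 and -1.04.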
